A study of Mus musculus with 6 samples.

Results

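The Anp32 family was followed in fat of NOD mice, which become diabetic through autoimmunity. Its members were all probe sets of the array whose gene symbol was Anp32a, Anp32b or Anp32e, which gave 3 of 18193 genes and 6 of the 34945 probe sets with 1 gene symbol: 3 for Anp32a, 1 for Anp32b and 2 for Anp32e. All 6 passed the filter on low signals described under the processing. The family was chosen by the signals of Anp32a on these arrays, since its probe set with the highest mean signal was low in diabetic fat while the others moved less. The values of Anp32a between diabetic fat and the other groups are therefore a description, with no test.

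RNA was measured on 6 Affymetrix arrays in 3 groups of 2. They were fat of mice treated with AAT (alpha-1-antitrypsin, a serum inhibitor of proteases) that had reverted stably and were independent of insulin, fat of diabetic mice with blood glucose above 300 mg/dl on 3 days in a row, and fat of normoglycemic females aged 10 weeks. All were NOD mice; age and sex are labelled for the normoglycemic group alone, and the dose of AAT, the fat depot and whether a group's arrays hold different mice are not labelled, so that errors measure the spread between these samples, which may be technical. Signals are the authors' MAS5 values on a linear scale.

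Proteins of the family are small acidic nuclear proteins, with leucine-rich repeats in the first part of the chain and a long stretch of aspartate and glutamate in the last. Anp32a (also called pp32, LANP or PHAP1) is known as an inhibitor of the phosphatase PP2A, as a partner of Set in a complex that shields histones from acetylation, as a promoter of apoptosome activity and as a partner of the RNA-binding protein HuR. Anp32b is a histone chaperone tied to cell proliferation, and Anp32e removes the histone variant H2A.Z from chromatin.

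The sequences around the start sites are shown because all 3 genes held the motif CCAAT there, which the choice of members did not use. Each line holds 250 bases before to 50 after the start from RefSeq (GRCm38.p6), read 5′ to 3′ along the gene, and capitals mark CCAAT, or ATTGG where it lies on the opposite strand.
Anp32a, chr9:62341093-62341392, plus strand: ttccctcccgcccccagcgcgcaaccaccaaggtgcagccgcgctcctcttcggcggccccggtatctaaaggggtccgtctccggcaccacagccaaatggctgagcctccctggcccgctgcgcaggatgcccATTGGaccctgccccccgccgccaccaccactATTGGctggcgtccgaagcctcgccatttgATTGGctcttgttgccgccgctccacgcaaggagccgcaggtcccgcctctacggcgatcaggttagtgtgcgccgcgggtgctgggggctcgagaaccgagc
Anp32b, chr4:46450676-46450975, plus strand: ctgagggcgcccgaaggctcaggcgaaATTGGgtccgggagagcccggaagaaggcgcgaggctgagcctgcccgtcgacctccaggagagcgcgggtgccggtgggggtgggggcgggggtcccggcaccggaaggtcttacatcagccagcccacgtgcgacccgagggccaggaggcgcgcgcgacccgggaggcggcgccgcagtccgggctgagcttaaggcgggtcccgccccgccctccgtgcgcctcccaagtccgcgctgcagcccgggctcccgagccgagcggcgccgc
Anp32e, chr3:95929007-95929306, plus strand: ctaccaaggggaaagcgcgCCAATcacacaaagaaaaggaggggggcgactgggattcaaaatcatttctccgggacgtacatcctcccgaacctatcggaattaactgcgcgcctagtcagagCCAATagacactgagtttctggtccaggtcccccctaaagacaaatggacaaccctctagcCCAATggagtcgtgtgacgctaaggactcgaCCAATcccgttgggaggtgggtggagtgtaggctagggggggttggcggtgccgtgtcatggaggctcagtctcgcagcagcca

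Anp32a held 3 copies of CCAAT, all on the opposite strand, whose first bases lay 115, 83 and 53 bases before the start. Anp32e held 4, all on the gene's own strand, at 231, 126, 65 and 34 bases before it, and Anp32b held 1, at 223. CCAAT on either strand was in 37.4% of the 32851 windows of the same length, 3 or more copies in 3.37% and 4 or more in 1.06%. GGGCGG on either strand, found in 35.7% of windows, occurred once in Anp32a, 3 times in Anp32b (2 of them overlapping by a base) and not in Anp32e. TATAAA, in 13.6% of windows, was in none of the 3. The share of G and C was 68.7% for Anp32a, 76.3% for Anp32b and 56.3% for Anp32e, against a median of 52.7%. The windows were not matched for that share, so the motif shares are a description. These matches are letters in a window, and binding was not measured.

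The leading Anp32a probe set, 1450407_a_at, was far dimmer in diabetic fat than in either other group. Its signal was 4817 and 4591 in AAT-treated fat, 414 and 491 in diabetic fat, and 2789 and 3853 in normoglycemic fat. The 2 diabetic arrays lay below the other 4, the AAT-treated arrays lay above the normoglycemic ones, and no groups overlapped. Means were 4704 ± 159 in AAT-treated fat, 452 ± 54.4 in diabetic fat, and 3321 ± 753 in normoglycemic fat (SD, n = 2 each).

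On the scale of log2(signal + 74), used for all differences here, it differed by −2.68 ± 0.32 (moderated SE) between diabetic and normoglycemic fat and by 3.19 ± 0.32 between AAT-treated and diabetic fat. By size these were the 9th and the 6th largest differences among the 22101 probe sets fitted, whose median size was 0.41 and 0.31. In AAT-treated against normoglycemic fat it differed by 0.51 ± 0.32, the 6656th largest, so the order of those groups rests on a gap of less than 2 SE. Any pair of the comparisons shares 1 group of arrays. In whole tissue fewer cells of a type and less RNA per cell cannot be told apart. The mean signal was 7.34-fold lower in diabetic than in normoglycemic fat and 10.4-fold higher in AAT-treated than in diabetic fat.

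The 2 arrays of a group lay closer together than for the median probe set in AAT-treated and diabetic fat, and about as close in normoglycemic fat. Their gap was 0.07 in AAT-treated fat, 0.21 in diabetic fat, and 0.46 in normoglycemic fat on the log2 scale, against a median gap over all fitted probe sets of 0.49, 0.37 and 0.46. Leaving out each array in turn gave −2.90 to −2.45 for diabetic against normoglycemic fat and 3.08 to 3.29 for AAT-treated against diabetic fat.

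**Figure D1:**
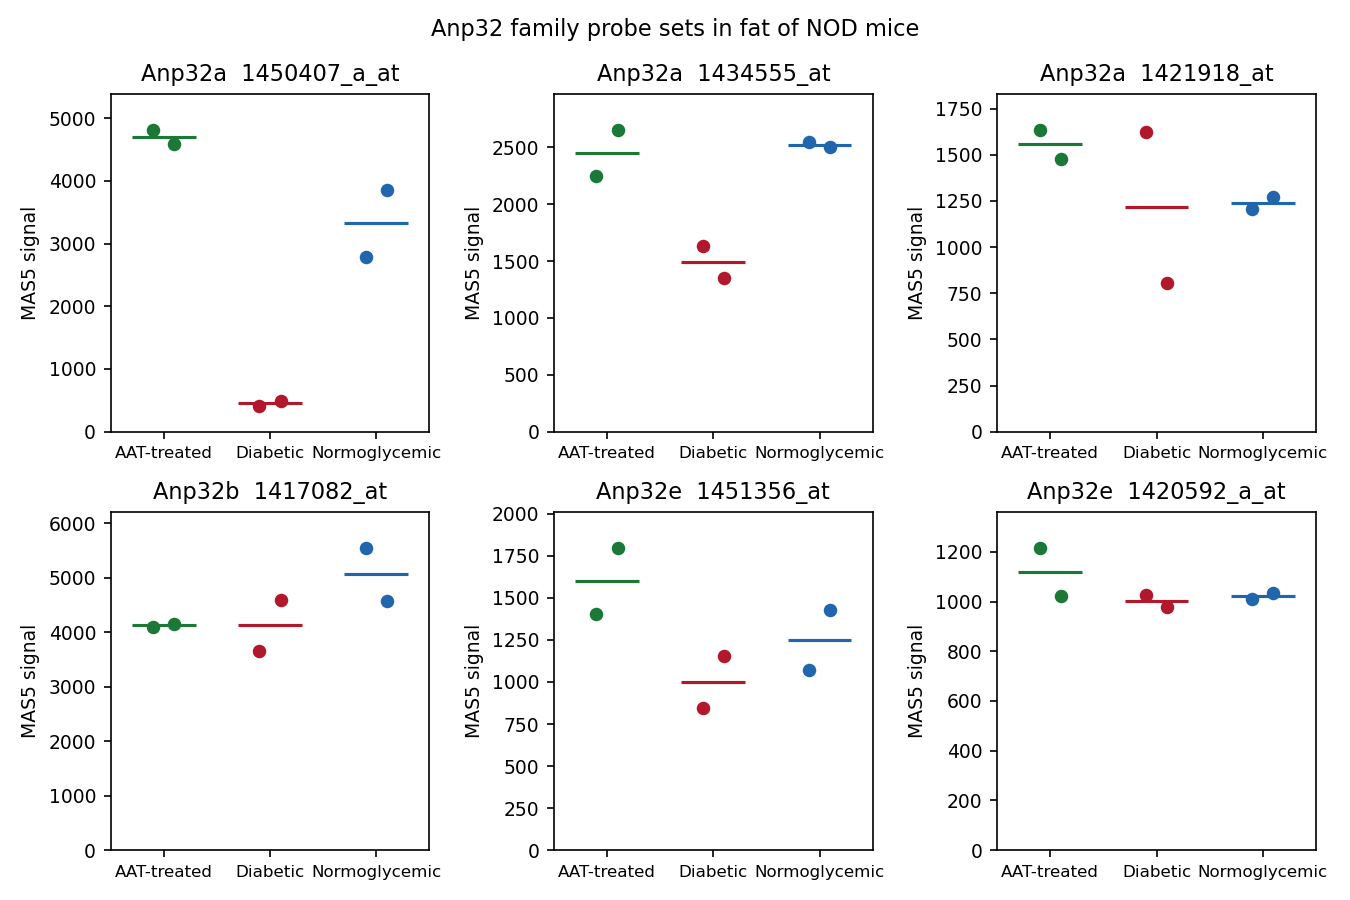
MAS5 signal (linear axis from 0) of the 6 Anp32 probe sets in AAT-treated, diabetic and normoglycemic fat; points are arrays and lines the mean of 2. For 1450407_a_at the diabetic arrays are at 414 and 491 and the other 4 at 2789 or more, while the remaining panels show smaller gaps.

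The second Anp32a probe set, 1434555_at, had its lowest values in diabetic fat as well, with a smaller gap. Its signal was 2249 and 2656 in AAT-treated fat, 1631 and 1349 in diabetic fat, and 2544 and 2504 in normoglycemic fat. The diabetic arrays lay below the other 4, and the AAT-treated arrays lay on either side of the normoglycemic ones. The differences were −0.74 ± 0.31 for diabetic against normoglycemic fat, 0.69 ± 0.31 for AAT-treated against diabetic fat and −0.04 ± 0.31 for AAT-treated against normoglycemic fat.

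The third, 1421918_at, did not separate diabetic fat. Its signal was 1635 and 1478 in AAT-treated fat, 1621 and 808 in diabetic fat, and 1207 and 1273 in normoglycemic fat. Diabetic 1 was among the highest arrays and diabetic 2 was the lowest. The difference was −0.10 ± 0.38 for diabetic against normoglycemic fat, where it was 0.37 without diabetic 2, and 0.41 ± 0.38 for AAT-treated against diabetic fat, where it was −0.06 without diabetic 2. For AAT-treated against normoglycemic fat it was 0.31 ± 0.38.

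The annotation assigned 1450407_a_at and 1421918_at to the same sequence record of Anp32a and 1434555_at to another; the suffix _a_at marks a probe set designed to match several transcripts of a gene. The sequences of the probes were not used here. Differences of 1450407_a_at and 1421918_at lay 2.57 apart between diabetic and normoglycemic fat and 2.77 apart between AAT-treated and diabetic fat. Of 1893 pairs of fitted probe sets that shared a gene and a record, 4 (0.211%) lay at least as far apart in the first comparison, where the median was 0.49, and 2 (0.106%) in the second, where it was 0.37, the Anp32a pair included in each count. In AAT-treated against normoglycemic fat the pair lay 0.20 apart, and 69.4% of pairs lay as far or farther. Since this disagreement was part of the choice, the shares only describe it.

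**Figure D2:**
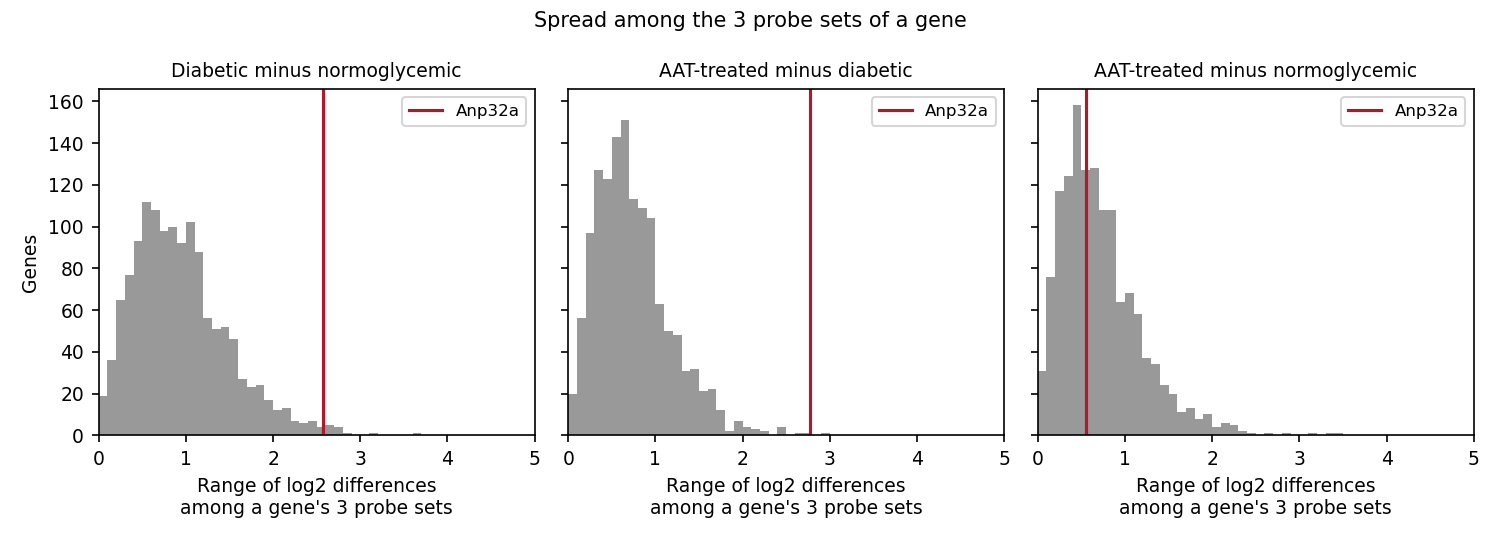
Number of genes (y axis) by the range of log2 differences among their probe sets (x axis), for the 1347 genes with 3 fitted probe sets in each comparison; red lines mark Anp32a. Anp32a lies at 2.57 and 2.77 in the comparisons with diabetic fat, which 13 genes and 2 genes reach or exceed with Anp32a counted, and at 0.56 in AAT-treated against normoglycemic fat, where the median gene is at 0.63.

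Anp32b, measured by 1417082_at, showed no difference past the test. Its signal was 4105 and 4157 in AAT-treated fat, 3666 and 4595 in diabetic fat, and 5544 and 4582 in normoglycemic fat. The AAT-treated arrays nearly coincided between the diabetic ones, and both lay below the normoglycemic arrays. The difference was −0.29 ± 0.33 for diabetic against normoglycemic fat (limma adjusted p = 0.753; 95% interval −1.03 to 0.45). It was 0.01 ± 0.33 for AAT-treated against diabetic fat (limma adjusted p = 1; 95% interval −0.73 to 0.75), and −0.28 ± 0.33 for AAT-treated against normoglycemic fat (limma adjusted p = 0.938).

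Anp32e was read by probe sets that differed in size of change. The signal of 1451356_at was 1403 and 1795 in AAT-treated fat, 842 and 1157 in diabetic fat, and 1069 and 1428 in normoglycemic fat. AAT-treated fat lay above diabetic fat without overlap, and normoglycemic fat overlapped with both. The differences were 0.65 ± 0.34 for AAT-treated against diabetic fat (limma adjusted p = 0.937; 95% interval −0.13 to 1.42), −0.30 ± 0.34 for diabetic against normoglycemic fat (limma adjusted p = 0.757) and 0.34 ± 0.34 for AAT-treated against normoglycemic fat (limma adjusted p = 0.935).

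The other Anp32e probe set, 1420592_a_at, spanned only 0.29 on the log2 scale over the 6 arrays, with signals of 1214 and 1021 in AAT-treated fat, 1028 and 977 in diabetic fat, and 1010 and 1034 in normoglycemic fat. All 3 groups overlapped. Its differences were −0.03 ± 0.31 for diabetic against normoglycemic fat (limma adjusted p = 0.981), 0.14 ± 0.31 for AAT-treated against diabetic fat (limma adjusted p = 0.996) and 0.12 ± 0.31 for AAT-treated against normoglycemic fat (limma adjusted p = 0.966).

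**Figure D3:**
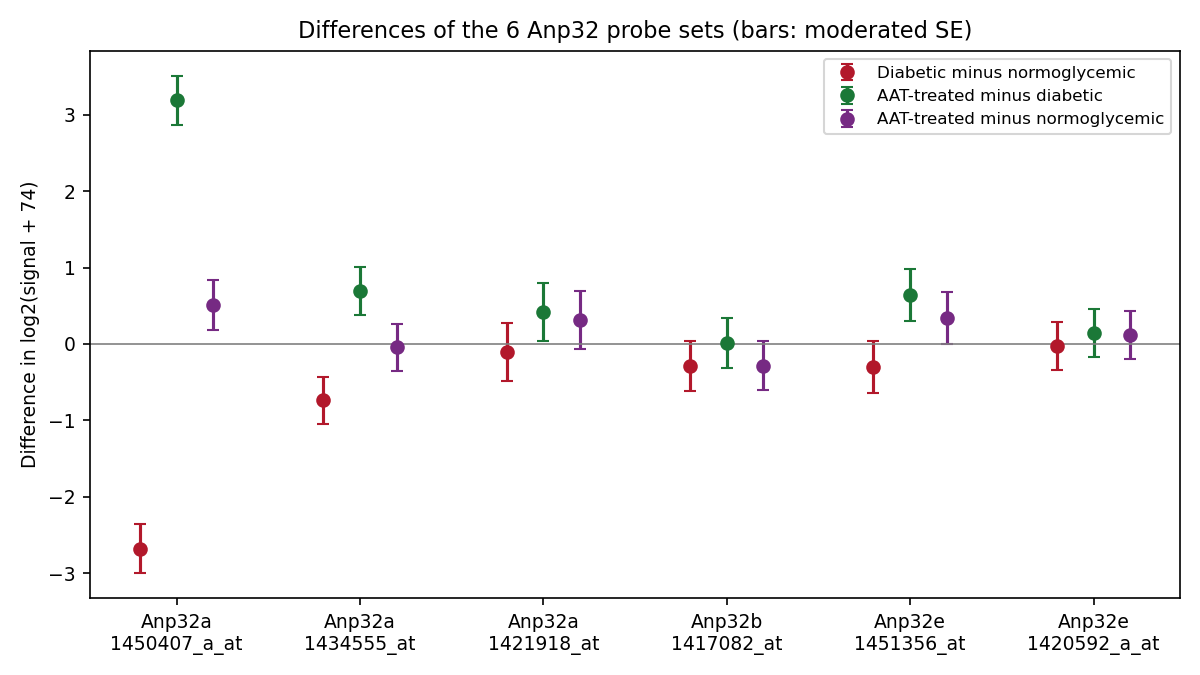
Difference in log2(signal + 74) (y axis) of the 6 Anp32 probe sets (x axis) in 3 comparisons; points are limma estimates from 2 arrays a group and bars are 1 moderated SE. The leading Anp32a probe set is at −2.68, 3.19 and 0.51, and the other 5 lie between −0.74 and 0.69.

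By limma, 0 of the 6 members and 0% of the 22101 fitted probe sets passed an adjusted p of 0.05 in each of the 3 comparisons. At an unadjusted p under 0.05, 0 of the 3 Anp32b and Anp32e probe sets were called in each comparison, against 10.5% of all probe sets for diabetic against normoglycemic, 4.90% for AAT-treated against diabetic and 4.77% for AAT-treated against normoglycemic fat. Groups did not overlap for 2 of 6 members between diabetic and normoglycemic fat, where 45.0% of all probe sets did not. They did not overlap for 3 of 6 between AAT-treated and diabetic fat, against 34.3%, and for 3 of 6 between AAT-treated and normoglycemic fat, against 31.8%. Since Anp32a was chosen on its values here, nothing is read from these counts.

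Across the 6 arrays, which share groups of 2, the log2 values of the leading Anp32a probe set correlated at Pearson r = 0.92 with 1434555_at and at 0.40 with 1421918_at. For Anp32e the correlation was 0.78 with 1451356_at and 0.50 with 1420592_a_at, and for Anp32b it was 0.27. These are given as a description.

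The genes most like the leading Anp32a probe set were those with the highest r over the 6 arrays among 7999 genes whose log2 range was at least 1. In order they were the tetraspanin Cd9 (r = 0.99), the zinc finger gene Zxdb (0.99), the ubiquitin ligase gene Ubr7 (0.98), the interferon-induced exonuclease Isg20 (0.98), the scaffold gene Ranbp9 (0.97) and the small GTPase Rac1 (0.97). Of the 7999 genes 71, or 0.888%, reached 0.9. Cd9 signals were 1717 and 1546 in AAT-treated fat, 360 and 516 in diabetic fat, and 1237 and 1484 in normoglycemic fat.

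Changes of these genes were smaller than that of the leading probe set. Between diabetic and normoglycemic fat Cd9 differed by −1.50 ± 0.33, Isg20 by −1.31 ± 0.33, Ubr7 by −1.21 ± 0.32, Zxdb by −0.99 ± 0.42, Ranbp9 by −0.98 ± 0.31 and Rac1 by −0.86 ± 0.34. The most opposite genes were Atp6v1d, a subunit of the proton pump of lysosomes (−0.97), Acly, which makes acetyl-CoA from citrate (−0.97), and Insig1, which holds back sterol synthesis (−0.97). They differed by 0.94 ± 0.31, 2.03 ± 0.36 and 2.48 ± 0.35 in the same comparison. Of the other fitted probe sets, 2 of 3 for Acly and 1 of 2 for Atp6v1d had the opposite sign.

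**Figure D4:**
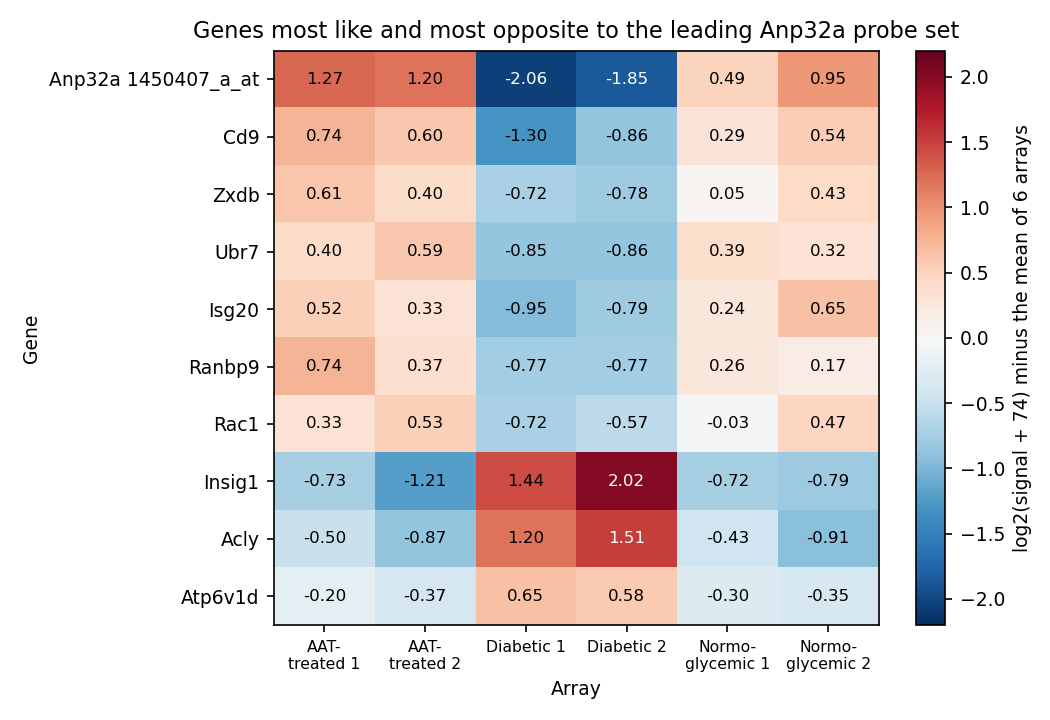
Log2(signal + 74) minus its mean over 6 arrays (colour and printed value) for the leading Anp32a probe set, the 6 genes with the highest and the 3 with the lowest correlation to it (rows), by array (columns). Both diabetic arrays are low in the first 7 rows and high in the last 3, as the choice by correlation requires.

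Genes known to work with the family were followed in 6 lists. No member of any list passed the adjusted threshold by limma in either direction in any comparison, so values are given for the genes named. Counts at an unadjusted p under 0.05 stand against 10.5% of all probe sets for diabetic against normoglycemic, 4.90% for AAT-treated against diabetic and 4.77% for AAT-treated against normoglycemic fat. Of the 56 differences of list genes covered here, 43 moved by over 1.5 times in size or turned sign without 1 array. Of 27 for the genes chosen by likeness 9 did, all between AAT-treated and normoglycemic fat. The latter genes were chosen by correlation over these same arrays. Their steadiness in the comparisons with diabetic fat is built into that choice, so the counts are not set against each other.

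Of the histone chaperones and acetylation partners 13 of 18 genes were measured. Between diabetic and normoglycemic fat 6 were higher and 7 lower, with a median of −0.18 against −0.06 over all probe sets (0.0059 between AAT-treated and diabetic and −0.04 between AAT-treated and normoglycemic fat), and 3 had an unadjusted p under 0.05, where 10.5% of all probe sets did. The nucleosome assembly gene Nap1l1 had signals of 10692 and 8243 in AAT-treated fat, 3175 and 4509 in diabetic fat, and 10272 and 13112 in normoglycemic fat, and its r with the leading Anp32a probe set was 0.93. Among the other genes named from the lists this r ran from −0.78 for Znhit1 to 0.91 for Ppp2ca. Nap1l1 differed by −1.60 ± 0.36 between diabetic and normoglycemic fat, where 1 of 6 other probe sets had the opposite sign, and by 1.29 ± 0.36 between AAT-treated and diabetic fat, where none of them had. Npm1, a nucleolar chaperone, differed by −1.28 ± 0.45 and 1.20 ± 0.45 in those comparisons, the second being 0.78 without AAT-treated 2.

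Between AAT-treated and diabetic fat 9 of the 13 were higher and 4 had an unadjusted p under 0.05, where 4.90% of all probe sets did, with a median of 0.12. For AAT-treated against normoglycemic fat 7 were higher, the median was 0.10 and 0 had such a p. There the acetyltransferase Ep300 differed by 0.62 ± 0.34 and the chaperone Hira by −0.73 ± 0.45, which was −0.23 without normoglycemic 1 and −1.22 without normoglycemic 2. Set, the partner of Anp32a, had signals of 7508 and 6598 in AAT-treated fat, 8770 and 6613 in diabetic fat, and 4664 and 6096 in normoglycemic fat. Its difference of 0.51 ± 0.35 between diabetic and normoglycemic fat had the opposite sign in 1 of 2 other probe sets. Set differed by −0.11 ± 0.35 between AAT-treated and diabetic fat, where 2 of 2 others were opposite. For AAT-treated against normoglycemic fat it differed by 0.40 ± 0.35, with 1 of 2 others opposite.

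Genes of H2A.Z exchange, the process that Anp32e acts in, were all measured, 13 of 13. Between diabetic and normoglycemic fat 8 were higher, with a median of 0.13, and 2 had an unadjusted p under 0.05. These were Trrap, a scaffold of the acetyltransferase complex (1.13 ± 0.40), and Srcap, the exchange ATPase (1.0 ± 0.42). Srcap was at 0.50 without normoglycemic 1, and with the hybridisation controls as a covariate Srcap was at 0.49 and Trrap at 0.61. Between AAT-treated and diabetic fat 6 were higher, with a median of −0.13, and 1 had such a p; Trrap differed by −0.98 ± 0.40 (−0.60 without AAT-treated 2) and Znhit1 by −0.70 ± 0.34, with its other probe set of the opposite sign. Of the 13 genes 9 were higher between AAT-treated and normoglycemic fat, with a median of 0.20 and 0 at that p; Ruvbl2 differed by −0.65 ± 0.37. H2az1, which encodes the variant itself, differed by 0.24 ± 0.35, 0.08 ± 0.35 and 0.32 ± 0.35 in the 3 comparisons in this order, and its other probe set had the opposite sign in the second.

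Of PP2A subunits and inhibitors 14 of 15 were measured. Between diabetic and normoglycemic fat 6 were higher, with a median of −0.23, and 1 had an unadjusted p under 0.05, the regulatory subunit Ppp2r5e (1.29 ± 0.49), for which 2 of 3 other probe sets had the opposite sign. It was at 0.82 without normoglycemic 1 and at 0.53 with the hybridisation covariate. The scaffold subunit Ppp2r1a differed by 0.83 ± 0.40, with 1 of 4 other probe sets of the opposite sign. Between AAT-treated and diabetic fat 7 were higher, with a median of 0.03. Ppp2r5e differed there by −1.07 ± 0.49, again with 2 of 3 others opposite, and Ppp2r5a by −0.94 ± 0.45. The difference of Ppp2r5a was −0.35 without diabetic 2 and −1.54 without diabetic 1. Between AAT-treated and normoglycemic fat 8 were higher, with a median of 0.06; Ppp2r1a differed by 0.57 ± 0.40 and Ppp2r1b by −0.44 ± 0.32. In these last comparisons 0 had such a p. The catalytic subunit Ppp2ca differed by −0.32 ± 0.33 between diabetic and normoglycemic and by 0.38 ± 0.33 between AAT-treated and diabetic fat, and its other probe set had the opposite sign in both. For AAT-treated against normoglycemic fat Ppp2ca was at 0.06 ± 0.33, with the other probe set of the same sign.

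Of the apoptosome genes 11 of 14 were measured. Between diabetic and normoglycemic fat 5 were higher, with a median of −0.07, and 1 had an unadjusted p under 0.05, the survival gene Bcl2 (1.15 ± 0.34, all 4 other probe sets of the same sign). The chaperone gene Hspa8 differed by 0.70 ± 0.40, Apaf1, the core of the apoptosome, by 0.68 ± 0.39 and its caspase Casp9 by −0.07 ± 0.55; 2 of 3 other probe sets of Hspa8 and the other one of Apaf1 had the opposite sign. Between AAT-treated and diabetic fat 7 were higher, with a median of 0.06 and 0 at that p; Hspa1b differed by 0.79 ± 0.39, Casp9 by −0.88 ± 0.55 and Apaf1 by −0.26 ± 0.39, again with its other probe set of the opposite sign. Between AAT-treated and normoglycemic fat 5 were higher, with a median near 0, and 2 had such a p, Bcl2 (1.45 ± 0.34), with signals of 1137 and 1045 in AAT-treated fat, 1066 and 715 in diabetic fat, and 349 and 358 in normoglycemic fat, and the heat shock gene Hspa1b (1.37 ± 0.39, and 0.84 without normoglycemic 1). Casp9 was at 218 and 36.3 in AAT-treated fat, against 255 to 276 on the other arrays, and its difference for diabetic against normoglycemic fat turned to 0.03 with quantile normalization. For AAT-treated against normoglycemic fat Casp9 differed by −0.94 ± 0.55, and by −0.24 without AAT-treated 2. Apaf1 differed there by 0.41 ± 0.39, with its other probe set of the opposite sign.

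Of the genes of mRNA export and HuR 9 of 10 were measured. Between diabetic and normoglycemic fat 5 were higher, with a median of 0.02, and 2 had an unadjusted p under 0.05, the export receptor Nxf1 (1.57 ± 0.51) and Ranbp1, of the Ran cycle (−0.91 ± 0.35). Nxf1 was at 0.99 without normoglycemic 1 and at 0.79 with the hybridisation covariate. Between AAT-treated and diabetic fat 7 were higher, with a median of 0.08 and 0 at that p; Ranbp1 differed by 0.59 ± 0.35 and Elavl1, which encodes HuR, by 0.43 ± 0.38, with 2 of 4 other probe sets opposite. Between AAT-treated and normoglycemic fat 6 were higher, with a median of 0.14 and 0 at that p. Nxf1 differed there by 1.17 ± 0.51, which was 0.50 without AAT-treated 1 and 1.83 without AAT-treated 2. Elavl1 differed by 0.36 ± 0.38 with the opposite sign in 4 of 4 other probe sets. The exportin Xpo1 differed by 0.09 ± 0.32, 0.12 ± 0.32 and 0.20 ± 0.32, and its other probe set had the opposite sign in the last 2. Elavl1 was at −0.07 ± 0.38 between diabetic and normoglycemic fat, with 0 of 4 other probe sets opposite.

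The last list held 5 other reported partners and targets, all measured, with medians of −0.05, 0.17 and 0.14 and 0 at an unadjusted p under 0.05 in each comparison. Rb1 differed by 0.38 ± 0.39 and Atxn1 by −0.33 ± 0.38 between diabetic and normoglycemic fat, and Atxn1 by 0.73 ± 0.38 between AAT-treated and diabetic fat, where Rb1 was at −0.24 ± 0.39; the other probe set of Atxn1 was opposite in both. For AAT-treated against normoglycemic fat Map1b differed by 0.87 ± 0.65, with its other probe set opposite, and Atxn1 by 0.40 ± 0.38. Atm, the kinase gene, differed by −0.20 ± 0.43, 0.01 ± 0.43 and −0.19 ± 0.43. Rb1 and Atxn1 in the first comparison, Rb1 in the second and Map1b and Atxn1 in the third turned sign without 1 of the arrays. So did Atm in all 3, Xpo1 and Elavl1 in the first, Set, H2az1 and Xpo1 in the second, and Ppp2ca in the third.

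Control measures also differed between the arrays. The beta-actin control's ratio of 3′ over 5′ signal, which grows as RNA is shortened, was 9.08 and 5.87 in fat of AAT-treated mice, 15.2 and 15.5 in fat of diabetic mice, and 3.63 and 4.30 in fat of normoglycemic mice, so that diabetic fat was highest, while AAT-treated fat lay above normoglycemic fat for both the ratio and the probe set. The same ratio for Gapdh was also highest on the diabetic arrays, at 2.31 and 0.79 in fat of AAT-treated mice, 2.46 and 4.63 in fat of diabetic mice, and 0.91 and 0.95 in fat of normoglycemic mice. With the beta-actin ratio as a covariate the leading probe set differed by −3.36 ± 1.28 between diabetic and normoglycemic and by 3.56 ± 0.74 between AAT-treated and diabetic fat, and 1434555_at by −0.05 ± 1.21 and 0.32 ± 0.71. The slope for the ratio comes only from gaps between arrays of the same group, widest in AAT-treated fat. Both diabetic arrays had a higher ratio than every other array. The ratio and the diabetic group therefore cannot be told apart, and nothing is read from the adjusted values. Genes above that turned sign with the beta-actin covariate between diabetic and normoglycemic fat were Npm1, Set, Trrap, Srcap, Ppp2r5e, Ppp2r1a, Hspa8, Apaf1, Nxf1, Ranbp1, Elavl1, Xpo1, Rb1 and Atm. Nap1l1, Bcl2 and the genes chosen by likeness kept theirs in that comparison. The likeness genes were chosen to follow the leading probe set on these same arrays, so their kept signs are partly built in. Turned and kept signs rest on the same slope and are no check of RNA quality. For AAT-treated against diabetic fat Npm1, Set, Trrap, Znhit1, H2az1, Ppp2r5e, Casp9, Apaf1, Ranbp1, Rb1 and Atm turned, and between AAT-treated and normoglycemic fat Nxf1, Ppp2r1a, Apaf1, Xpo1, Map1b and Atm did, as did Cd9, Zxdb, Ranbp9 and Atp6v1d of the genes chosen by likeness. Nap1l1 moved to −3.03 between diabetic and normoglycemic and to 2.08 between AAT-treated and diabetic fat, Hspa1b to 0.77 and Hira to −0.05 between AAT-treated and normoglycemic fat. Hybridisation controls averaged 25159 and 86286 in AAT-treated fat, against 26969 and 47942 in diabetic fat, and 128547 and 48494 in normoglycemic fat.

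All 8 adipocyte markers with a probe set passed the signal filter, and their sums were 228884 and 315171 in AAT-treated fat, 239339 and 395259 in diabetic fat, and 530134 and 349083 in normoglycemic fat. Of the 8, 4 were higher and 4 lower between diabetic and normoglycemic fat, and between AAT-treated and normoglycemic fat all 8 were lower, with a median of −0.63, of which 0 had an unadjusted p under 0.05. Single markers varied widely over the arrays, Fabp4 from 85600 to 339475, Retn from 5450 to 47888 and Lep from 18.7 to 9408. Of 13 marker lists 2 had their lowest summed signals on the diabetic arrays and 0 their highest. Proliferation genes, 6 of 6 above the filter, summed to 2576 and 2633 in AAT-treated fat, 1586 and 1520 in diabetic fat, and 3713 and 3830 in normoglycemic fat. Erythroid and platelet genes, 5 of 6 above it, summed to 10980 and 4077, 2648 and 3329, and 9695 and 12230 in the same order of groups. Smooth muscle genes, 6 of 6 above it, summed to 53460 and 81932, 13683 and 9476, and 6777 and 28146, and macrophage genes, 6 of 6, to 12441 and 7565, 12100 and 22894, and 5886 and 5978. B cell genes, of which 3 of 6 were above it, summed to 29745 and 10072, 1092 and 5239, and 1662 and 1267. Those 3 were the immunoglobulin genes Ighm, from 153 to 19419 over the arrays, and Jchain, from 350 to 9846, and Ms4a1, from 214 to 535. Between AAT-treated and normoglycemic fat 2 of the 3 were higher and 1 lower, so the sums follow immunoglobulin transcripts more than the list as a set. No signal was at 0. Their part in the Anp32a values was not tested.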

How the data were processed

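The members and gene lists were chosen with earlier results of these data known. Per the submitters' processing notes, MAS5 gave the values, and the authors deposited 1 intensity for each probe set on each array; the software version is not known here. The method takes off background and mismatch signal and rescales arrays one at a time. The mean without the top and bottom 2% was 500 on every array, and the authors' scaling was kept. The number of arrays limits precision. Median signals ran from 175.7 to 272.2.

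Gene symbols came from the platform's annotation; 34945 of 45101 probe sets had 1 symbol, and 34741 of these matched the RefSeq gene table by identifier, with 0 symbols changed. Probe sets with a mean signal above 164, the 40th percentile, were fitted, 22101 in number. Values were log2(signal + 74), 74 being the 25th percentile, which understates differences of dim probe sets. Limma 3.58.1 in R 4.3.3 was fitted across all of them (3 group means, eBayes with trend, 2-sided, Benjamini-Hochberg within a comparison, threshold 0.05; 3 residual and 5.82 prior degrees of freedom). An exact permutation test of 2 arrays against 2 cannot go below p = 0.333 and was not run.

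A gene outside the family stood as its brightest fitted probe set. Named were, for each list and comparison, the 2 genes with the smallest p, the partners Set, Elavl1, Xpo1, Ppp2ca, H2az1, Apaf1, Casp9 and Atm, and the 6 most like and 3 most opposite genes by correlation; Cd9, Nap1l1 and the marker lists given in full were picked for display after their values were seen. On simulated data with 200 of 22101 probe sets changed, the fit was checked for diabetic against normoglycemic fat. Changes of 2-fold were recovered in 2.06%, of 4-fold in 46% and of 8-fold in 83.6%. Noise was drawn as independent and normal, with limma's moderated spread of each probe set. On average 9.35 unchanged probe sets were called per run. The shares hold for that noise alone and set no bound on the changes missed in the data. Alternatives numbering 16 were run.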

Additional observations from a re-analysis of the deposited data

How the results depend on the processing

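Calls over all probe sets stayed at 0 in the 3 comparisons under all 16 alternatives, and no Anp32 probe set passed under any of them. For Anp32a, which was chosen on its values, nothing is read from this. Of 279 Anp32 values recomputed 267 kept their sign. Part of these could not change, since some alternatives alter the errors or the probe sets fitted but not the difference. The same holds for leaving out an array of a group outside the comparison. The leading Anp32a probe set kept its sign in each comparison, at −3.36 to −2.45, 3.08 to 3.56 and 0.20 to 0.74. With the beta-actin ratio as a covariate, which is highest in diabetic fat and leaves large errors, Anp32b turned to 0.0013 (diabetic against normoglycemic) and −0.15 (AAT-treated against diabetic). So did Anp32e 1451356_at, to 0.15 (diabetic against normoglycemic), 1420592_a_at, to −0.18, and Anp32a 1434555_at, to 0.27 (both AAT-treated against normoglycemic). With the hybridisation controls as a covariate Anp32b was at −0.034 for AAT-treated against diabetic. Leaving out 1 array gave Anp32b −0.15 to 0.17 in that comparison, 1420592_a_at −0.060 to 0.0076 for diabetic against normoglycemic and −0.00093 to 0.23 for AAT-treated against normoglycemic, and 1434555_at −0.16 to 0.07 in the last. The cause was not tested. Of 1328 values of other named genes, part of which likewise could not change, 70 changed sign, 35 of them with the beta-actin covariate and 27 without 1 array. The replicate number as a block called 0 probe sets. It could not move the differences, since each group holds 1 array of each number. Deviations of same-numbered arrays correlated at −0.08 for AAT-treated and diabetic, −0.48 for AAT-treated and normoglycemic, and 0.08 for diabetic and normoglycemic fat. The numbers were not taken to pair the arrays.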
